A study of Mus musculus with 11 samples.

Results

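Ehd1, Ehd2, Ehd3 and Ehd4, the mouse family of EHD membrane-trafficking proteins, and Muc13, a transmembrane mucin, were followed across 11 microarrays of common lymphoid progenitors (CLPs), a bone marrow stage from which lymphocytes develop. Ehd3 and Muc13 were taken because they stood out in an earlier look at these same arrays for their CpG difference in Ly-6D+ CLPs, and the other EHD genes because they are the paralogues of Ehd3. All 5 genes were measured, among 22180 genes in the table, each by its probe set with a single gene symbol and the highest mean over all arrays. There were 3 arrays of Ly-6D+ CLPs and 3 of Ly-6D- CLPs from C57BL/6 mice given CpG1826 (50 µg), a synthetic DNA oligonucleotide that the Toll-like receptor TLR9 binds, and 2 arrays of Ly-6D+ CLPs and 3 of Ly-6D- CLPs from C57BL/6 mice given PBS. Treatment was repeated on alternate days, and the cells were sorted on day 10 by surface Ly-6D, a protein of CLPs committed to the B lineage. The labels give neither an age nor a genotype beyond the strain. Neither whether a replicate was 1 animal or a pool nor whether the 2 populations came from the same animals is stated, so a p-value covers the spread between these samples, which may be technical. Values are normalised array signals on the log2 scale (RMA), where a difference of 1 is a doubling, and a gene passed where its adjusted p over all genes was under 0.05.

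EHD proteins are ATPases that bend and cut membranes of the endocytic pathway, and they carry a C-terminal EH domain that holds partners with an Asn-Pro-Phe motif. EHD1 returns internalised receptors from the recycling compartment to the cell surface, EHD2 sits at caveolae on the plasma membrane, and EHD3 and EHD4 act between early and recycling endosomes. Muc13 is a mucin anchored in the plasma membrane, best known from the gut epithelium, with extracellular domains that can be shed.

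Promoter windows of 300 bases (250 before and 50 after an annotated transcript start, RefSeq, GRCm38.p6) are shown for the genes on which the results turn: Ehd3 and Muc13, which were high after CpG, and Ehd4, the paralogue whose arrays separated in the opposite way in the 2 sorted populations. A window was listed for Ehd2 too, and Ehd1 had no entry. Muc13 had a pair of annotated starts. Each window is printed 5′ to 3′ on the gene's strand, with capitals marking matches, on either strand, to any of 5 motifs: the AP-1 type TGANTCA, the gamma-activated type TTCNNNGAA, the interferon-stimulated response type (GAAA, NN, GAAA, read without the commas), the TATA box TATAAA and the CCAAT box CCAAT.
Ehd3 (chr17:73804591-73804890, plus strand): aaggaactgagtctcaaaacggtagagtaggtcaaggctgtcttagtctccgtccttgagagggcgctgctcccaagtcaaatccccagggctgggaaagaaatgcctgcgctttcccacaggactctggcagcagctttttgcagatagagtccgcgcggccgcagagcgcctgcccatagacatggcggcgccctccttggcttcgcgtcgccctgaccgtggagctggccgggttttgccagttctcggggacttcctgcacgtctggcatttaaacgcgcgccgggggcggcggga
Ehd4 (chr2:120154526-120154825, minus strand): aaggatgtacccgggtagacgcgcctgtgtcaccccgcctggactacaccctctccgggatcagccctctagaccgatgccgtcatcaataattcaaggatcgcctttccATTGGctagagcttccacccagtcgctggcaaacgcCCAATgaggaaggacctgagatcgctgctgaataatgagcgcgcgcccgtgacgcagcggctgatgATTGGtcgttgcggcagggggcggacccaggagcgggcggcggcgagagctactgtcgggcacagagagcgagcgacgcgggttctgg
Muc13 first start (chr16:33793787-33794086, plus strand): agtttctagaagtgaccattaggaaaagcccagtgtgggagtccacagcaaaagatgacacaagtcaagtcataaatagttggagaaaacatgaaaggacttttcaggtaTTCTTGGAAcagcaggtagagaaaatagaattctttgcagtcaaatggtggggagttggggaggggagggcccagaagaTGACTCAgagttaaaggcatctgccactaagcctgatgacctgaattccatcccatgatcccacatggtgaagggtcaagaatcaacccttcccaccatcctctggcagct
Muc13 second start (chr16:33794239-33794538, plus strand): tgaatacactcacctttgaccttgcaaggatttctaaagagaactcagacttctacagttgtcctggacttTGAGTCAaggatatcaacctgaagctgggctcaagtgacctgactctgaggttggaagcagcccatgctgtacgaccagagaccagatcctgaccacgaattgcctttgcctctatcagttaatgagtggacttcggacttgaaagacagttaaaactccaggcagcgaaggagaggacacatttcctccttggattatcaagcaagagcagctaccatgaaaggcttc

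The windows of the EHD genes were rich in CG dinucleotides, with 24 in Ehd3, 29 in Ehd4 and 18 in Ehd2, against a median of 7 over the 32851 listed windows of that length. The Muc13 windows held 0 and 4. GC content was 61.7% for Ehd3, 62.7% for Ehd4, 62.0% for Ehd2 and 46.3% and 47.0% for Muc13, with a median of 52.7% over all windows. The Ehd3 window matched 0 of the 5 motifs. Both Muc13 windows held TGANTCA, beginning 61 and 179 bases before the start, as did 7.81% of all windows. The first of them also held TTCNNNGAA, 140 bases before the start, a motif in 8.30% of all windows. Ehd4 had 3 CCAAT matches, beginning 140, 104 and 38 bases before its start, and 37.4% of all windows had at least 1. The interferon-stimulated response type and TATAAA, present in 3.44% and 13.6% of all windows, were in 0 of these 4 windows. A match is a description of letters and was not tested as a binding site.

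The gene of the sorted protein separated the populations as labelled. Ly6d lay between 12.55 and 12.61 on the log2 scale in Ly-6D+ arrays and between 7.47 and 8.50 in Ly-6D- arrays. Of the progenitor markers, Il7r lay between 9.05 and 10.85, Flt3 between 10.36 and 10.87 and Kit between 8.13 and 9.42 over the 11 arrays, whose medians were 3.85 to 3.96. Detection calls were not used here, so no marker can be called absent. On the second principal component the third CpG replicates, at -0.386 (Ly-6D+) and -0.739 (Ly-6D-), lay apart from the other CpG arrays (11.6 to 22.7), and the effect of leaving out each array is given beside the results it changes.

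Ehd3 (probe set 17339574) was the most changed of the EHD genes. In Ly-6D+ CLPs its values were 7.08, 7.43 and 6.27 after CpG, against 4.23 and 4.92 after PBS. Every CpG array lay above both PBS arrays, with 1.35 log2 units between the nearest pair (10.7% of all genes were higher without overlap), and the third CpG replicate was the lowest of its group. The means of 6.93 ± 0.60 (SD, n = 3) and 4.58 ± 0.49 (SD, n = 2) differed by 2.35 on the log2 scale, or 5.11-fold, the sixth largest positive difference of all genes. This difference chose the gene and is given without a test. Leaving out 1 Ly-6D+ array moved it between 2.01 and 2.70.

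The CpG and PBS arrays of Ly-6D- CLPs played no part in that choice. Ehd3 there was 5.09, 5.17 and 5.42 after CpG, against 4.10, 4.21 and 4.20 after PBS. The CpG arrays were higher without overlap, as they were for 8.50% of all genes. The log2 change was 1.06, or 2.08-fold (SE 0.27, 95% interval 0.47 to 1.65), and it did not pass over all genes (limma adjusted p = 0.128). The spread in that test came from all 11 arrays, among them the Ly-6D+ arrays that chose Ehd3. Over the alternative settings the adjusted p ran between 0.0469 and 0.302, the lowest without Ly-6D+ CpG replicate 3, the array with the lowest Ehd3 value of its group. Its mean was highest in Ly-6D+ CLPs after CpG (6.93), followed by Ly-6D- CLPs after CpG (5.23), Ly-6D+ CLPs after PBS (4.58) and Ly-6D- CLPs after PBS (4.17). The first 2 groups were 0.85 apart at their nearest arrays, the next 2 were 0.17 apart and the last 2 were 0.02 apart, both less than the SD of 0.49 in Ly-6D+ CLPs after PBS. The PBS means of Ehd3 lay close to the array medians of 3.85 to 3.96 and were not shown to be above background. Its fold changes and the order of its PBS groups rest on those values. In bulk RNA from sorted cells, fewer cells with the transcript and less transcript per cell cannot be told apart.

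The paralogues had smaller differences. For Ehd1 (probe set 17548123), the recycling family member, Ly-6D+ CLPs had 8.42, 8.34 and 7.86 after CpG, against 8.34 and 8.25 after PBS. Ly-6D- CLPs had 8.42, 8.73 and 8.29 after CpG, against 8.13, 8.67 and 8.40 after PBS. The arrays overlapped in both populations, with log2 changes of -0.09 (95% interval -0.54 to 0.36, limma adjusted p = 0.985) in Ly-6D+ cells and 0.08 (-0.33 to 0.48, adjusted p = 0.919) in Ly-6D- cells. Ehd1 also had a second probe set (17356743), and the 2 disagreed. That one read 6.46, 6.31 and 6.45 in Ly-6D- CLPs after CpG, against 6.72, 6.77 and 7.07 after PBS, with a log2 change of -0.45 (SE 0.11). It did not pass either (limma adjusted p = 0.125 over 23521 single-symbol probe sets), and in Ly-6D+ CLPs its change was -0.07. The direction of Ehd1 in Ly-6D- CLPs therefore depends on the probe set.

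Ehd2 (probe set 17486807), the caveolar member, had 3.65, 3.66 and 3.84 in Ly-6D+ CLPs after CpG, against 3.69 and 4.15 after PBS. In Ly-6D- CLPs it had 3.75, 3.80 and 3.90 after CpG, against 4.11, 3.67 and 4.09 after PBS. All 4 groups overlapped their neighbours. The log2 changes were -0.20 (95% interval -0.57 to 0.16, limma adjusted p = 0.930) in Ly-6D+ and -0.14 (-0.47 to 0.19, adjusted p = 0.789) in Ly-6D- CLPs.

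Ehd4 (probe set 17390066), the early-endosome member, stood on opposite sides in the 2 populations. In Ly-6D+ CLPs it was 6.30, 6.45 and 6.27 after CpG, against 6.61 and 6.46 after PBS, a log2 change of -0.20 (95% interval -0.43 to 0.04, limma adjusted p = 0.846). In Ly-6D- CLPs it was 6.88, 6.81 and 6.95 after CpG, against 6.62, 6.64 and 6.46 after PBS, a log2 change of 0.31 (95% interval 0.09 to 0.52, adjusted p = 0.219). Every CpG array was below the PBS arrays in Ly-6D+ CLPs, by 0.01 at the nearest, and above them in Ly-6D- CLPs, by 0.17. Being lower without overlap was shared by 9.76% of all genes in Ly-6D+ CLPs, and the opposed pattern by 106 genes, or 0.478%. The difference between the 2 changes was -0.50 (SE 0.14, unadjusted p = 0.00570) and did not pass over all genes (limma adjusted p = 0.622), a comparison in which limma passed 0 of 22180 genes and 1413 (6.37%) had an unadjusted p under 0.05. Of the 3 paralogues, Ehd4 was the 1 below that level.

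**Figure D1:**
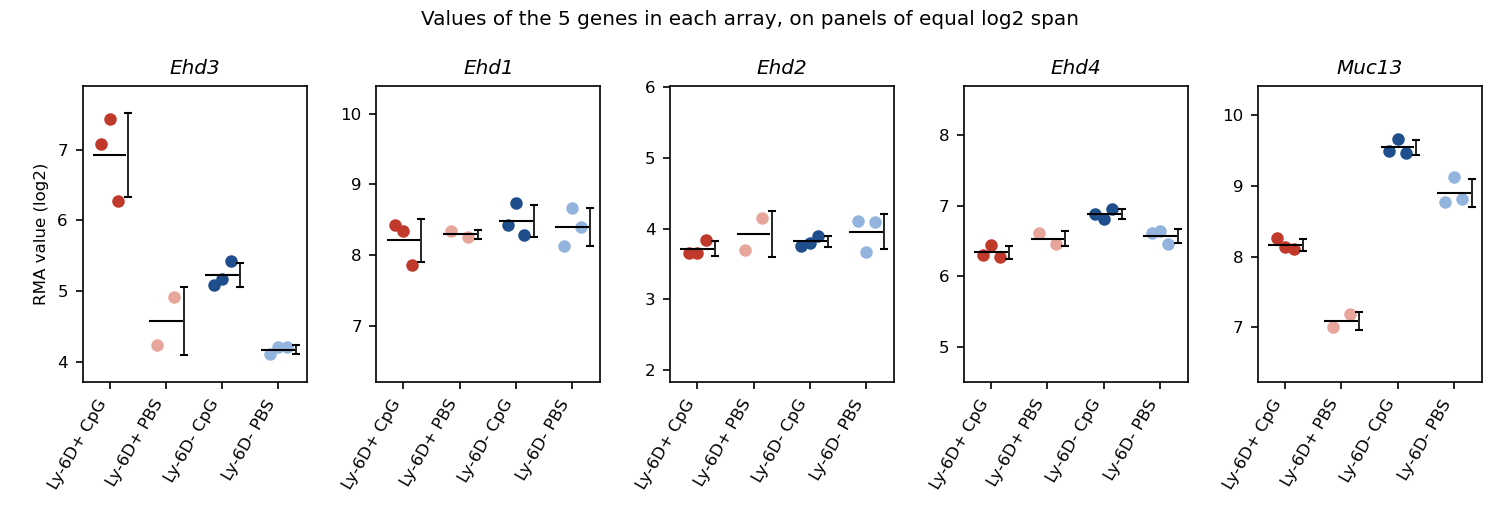
RMA values (log2) of the 5 genes in each of the 11 arrays. Points are arrays, horizontal lines are group means and bars are ± 1 SD (n = 3, or 2 for Ly-6D+ PBS). Ehd3 reaches 6.27 to 7.43 in Ly-6D+ CpG arrays, against 4.23 and 4.92 in Ly-6D+ PBS arrays, while Ehd1 and Ehd2 overlap between treatments and Muc13 is highest in Ly-6D- CpG arrays.

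Set against its paralogues within each array, Ehd3 changed unequally. In Ly-6D- CLPs the log2 ratio of Ehd3 to Ehd1 was higher after CpG than after PBS by 0.98, that to Ehd2 by 1.20 and that to Ehd4 by 0.75, each without overlap between the 3 CpG and 3 PBS arrays. The exact 2-sided permutation p was 0.1 for each of the 3 ratios, also when adjusted over them, the smallest value that 20 ways of labelling 6 arrays can give. The Ehd2 probe set, with group means of 3.72 to 3.96 where array medians were 3.85 to 3.96, was not shown to be above background, so the ratio to Ehd2 adds little to the change of Ehd3 itself. In Ly-6D+ CLPs, where the choice of Ehd3 fixes the direction, the same ratios were higher by 2.44, 2.56 and 2.55. None of the 3 paralogues passed the limma test for CpG in Ly-6D+ CLPs, and 0 of them had an unadjusted p under 0.05, where 0.0271% of all genes passed and 6.51% had an unadjusted p under 0.05.

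Muc13 (probe set 17325093) had 8.26, 8.14 and 8.10 in Ly-6D+ CLPs after CpG, against 7.00 and 7.18 after PBS. The groups were 0.91 apart at their nearest arrays (10.7% of all genes were higher without overlap). The means of 8.17 ± 0.09 (SD, n = 3) and 7.09 ± 0.13 (SD, n = 2) differed by 1.08, or 2.11-fold, again the value that chose the gene and untested here. Leaving out 1 Ly-6D+ array moved it between 0.98 and 1.17. In Ly-6D- CLPs, which did not enter the choice, Muc13 was 9.50, 9.67 and 9.47 after CpG, against 8.77, 9.13 and 8.81 after PBS. All 3 CpG arrays lay above all 3 PBS arrays, by 0.34 at the nearest, and 8.50% of all genes were higher without overlap there.

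In Ly-6D- CLPs Muc13 rose 1.56-fold (log2 change 0.64, SE 0.12, 95% interval 0.38 to 0.91, limma adjusted p = 0.0465), higher in 3 of 3 CpG arrays. It was the 1 of 5 genes that passed there, where 0.546% of all genes passed (0.302% as higher), and Ehd3, Ehd4 and Muc13 were the 3 with an unadjusted p under 0.05, as 12.0% of all genes had. The call lay at the threshold. It ended when any array other than Ly-6D- CpG replicate 3 was left out, the adjusted p reaching 0.179 when Ly-6D- CpG replicate 2 was dropped, and the change stayed between 0.58 and 0.76. The spread in this test came from all 11 arrays, among them the Ly-6D+ arrays that chose Muc13. With only the Ly-6D- arrays fitted the adjusted p was 0.176.

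Unlike Ehd3, Muc13 was ordered first by population and then by treatment. Its means were 9.55 in Ly-6D- CLPs after CpG, 8.90 in Ly-6D- CLPs after PBS, 8.17 in Ly-6D+ CLPs after CpG and 7.09 in Ly-6D+ CLPs after PBS, with gaps of 0.34, 0.51 and 0.91 between the nearest arrays of neighbouring groups. Each gap was wider than the SD of either neighbour, the largest of which was 0.20. As a description, since the Ly-6D+ arrays took part in the choice, the population difference (Ly-6D+ minus Ly-6D-) was -1.38 after CpG and -1.81 after PBS for Muc13, and 1.70 and 0.41 for Ehd3. After CpG the Ehd3 arrays were higher in Ly-6D+ CLPs without overlap, as were those of 7.89% of all genes. The CpG difference in Ly-6D+ CLPs minus that in Ly-6D- CLPs was 0.43 for Muc13 and 1.29 for Ehd3.

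**Figure D2:**
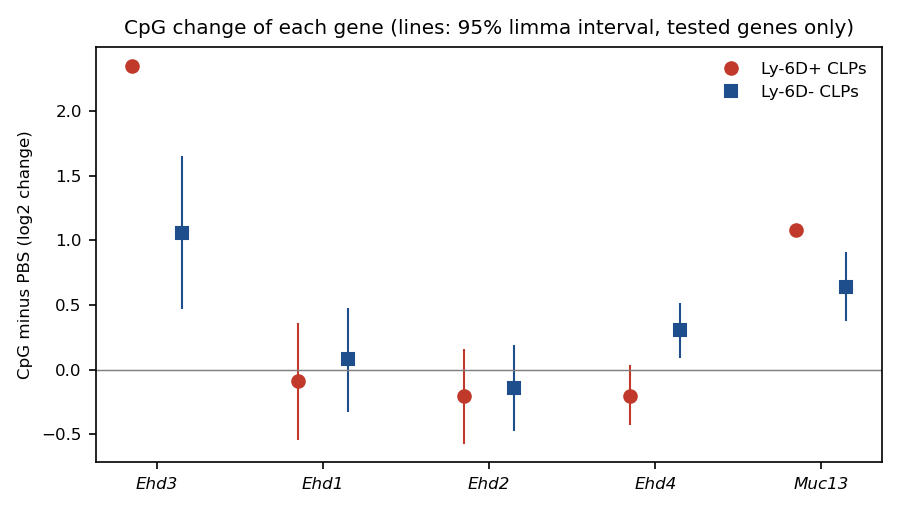
CpG minus PBS difference (log2) of each gene in Ly-6D+ CLPs (red circles) and Ly-6D- CLPs (blue squares). Lines are 95% limma intervals and are drawn only where a gene was tested; Ehd3 and Muc13 were chosen on the Ly-6D+ difference. Ehd3 lies at 2.35 and 1.06 and Muc13 at 1.08 and 0.64, and the intervals of Ehd1 and Ehd2 cover 0 in both populations.

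The population comparison of the paralogues separated Ehd4. After CpG, Ehd4 averaged 6.34 ± 0.10 in Ly-6D+ cells, against 6.88 ± 0.07 in Ly-6D- cells (SD, n = 3 each), lower without overlap in all 3 Ly-6D+ arrays, as were 9.04% of all genes. The log2 change was -0.54 (SE 0.10, 95% interval -0.75 to -0.32, limma adjusted p = 0.0161). It was the 1 of 3 tested paralogues that passed, where 2.14% of all genes passed (0.938% as lower). An unadjusted p under 0.05 was found for 12.7% of all genes. The call ended without Ly-6D+ CpG replicate 1 (adjusted p = 0.0703), replicate 3 of the same group (0.0627) or Ly-6D- CpG replicate 1 (0.0589), and the adjusted p was 0.0605 with only these 2 groups fitted. After PBS, Ehd4 was 6.54 ± 0.11 (SD, n = 2) in Ly-6D+ CLPs and 6.57 ± 0.10 (SD, n = 3) in Ly-6D- CLPs, with a log2 change of -0.04 (95% interval -0.27 to 0.20, adjusted p = 0.949). Ehd1 and Ehd2 had log2 changes of -0.27 and -0.10 after CpG (adjusted p = 0.605 and 0.852) and of -0.10 and -0.04 after PBS (adjusted p = 0.913 and 0.968). After PBS limma passed 0 of the 3 paralogues, with 0 at an unadjusted p under 0.05, where 1.98% of all genes passed and 11.9% had an unadjusted p under 0.05.

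**Figure D3:**
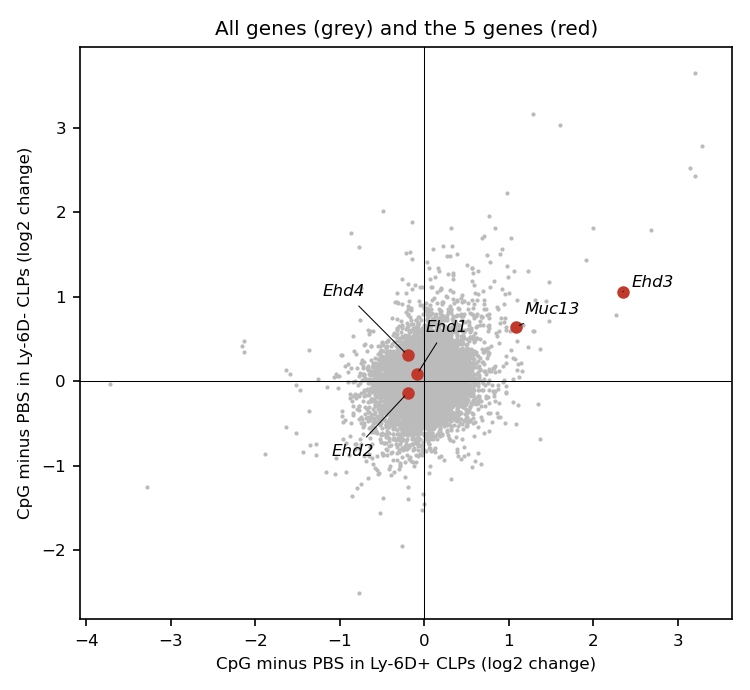
CpG minus PBS difference (log2) of all 22180 genes in Ly-6D+ CLPs (x axis) and Ly-6D- CLPs (y axis), with the 5 genes in red. Ehd3 at 2.35 and 1.06 lies far to the upper right of the mass of genes, Muc13 at 1.08 and 0.64 at its edge, and Ehd1, Ehd2 and Ehd4 within it.

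Genes whose arrays followed Ehd3 most closely were sought by the mean absolute difference, over the 11 arrays, between each gene's deviations from its own mean, out of 18817 genes left after predicted and numbered symbols were set aside. The nearest was H2-Eb2, an MHC class II chain gene, at 0.385 log2 units, followed by Il18r1, a chain of the interleukin-18 receptor, at 0.440. Next came Rnd3 at 0.527, the guanylate-binding protein gene Gbp9 at 0.535 and the transcriptional repressor gene Nacc2 at 0.541, against a median of 0.934 over all those genes. H2-Eb2 averaged 6.20 and 5.03 in Ly-6D+ CLPs after CpG and PBS, and 4.64 and 3.98 in Ly-6D- CLPs. Il18r1 averaged 9.72 and 8.71 in Ly-6D+ CLPs after CpG and PBS, and 8.57 and 7.98 in Ly-6D- CLPs. Their CpG differences in Ly-6D+ CLPs, 1.17 and 1.01, were smaller than the 2.35 of Ehd3.

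Nearest to Muc13 was Lst1, a leukocyte-specific transcript, at 0.240 log2 units, followed by the hexokinase gene Hk3 at 0.261. Lcp2, the adaptor protein SLP-76, followed at 0.266, Mboat1, a lysophospholipid acyltransferase gene, at 0.272, and the chemokine receptor gene Ccr2 at 0.292, with a median of 0.742 over all genes. Lst1 averaged 9.16 and 8.81 in Ly-6D+ CLPs after CpG and PBS, and 10.59 and 10.11 in Ly-6D- CLPs. Ccr2 averaged 6.70 and 5.78 in Ly-6D+ CLPs after CpG and PBS, and 8.61 and 7.04 in Ly-6D- CLPs. By group mean, all 5 were lowest in Ly-6D+ CLPs after PBS and highest in Ly-6D- CLPs after CpG, as Muc13 was. These distances describe 11 arrays that share a platform and a normalisation, and no test was made of them.

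**Figure D4:**
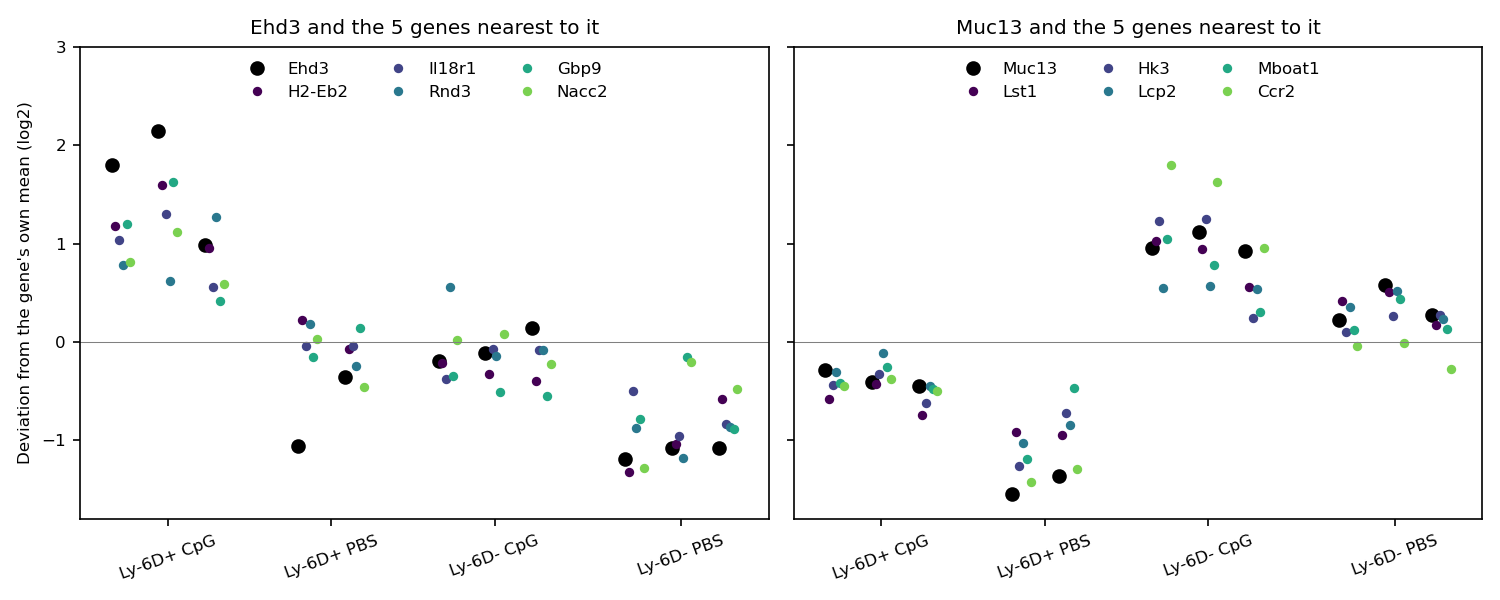
Deviation of each array from a gene's own mean (log2), for Ehd3 (left, black) and Muc13 (right, black) with the 5 genes nearest to each (colours), in the 4 groups; replicates stand side by side in the order of their numbers. On average the Ehd3 set is highest in Ly-6D+ CpG arrays, and the Muc13 set is highest in Ly-6D- CpG arrays and lowest in Ly-6D+ PBS arrays.

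Of 31 recycling-endosome partners (Rab GTPases, their effectors, syndapins, MICAL proteins and the retromer) 28 were measured, and limma passed 0 of them for CpG in Ly-6D+ CLPs (median log2 change 0.04, 0 with an unadjusted p under 0.05) and 0 in Ly-6D- CLPs (median 0.06, 5 with an unadjusted p under 0.05). Over all genes 0.0271% and 0.546% passed, 6.51% and 12.0% had an unadjusted p under 0.05, and the median was 0.00 in both. In Ly-6D- CLPs the smallest p values were those of Ehbp1l1, an EHD-binding protein (log2 change 0.38, SE 0.11, limma adjusted p = 0.164), Rab4a, a GTPase of fast recycling (-1.04, SE 0.32, adjusted p = 0.209), and the retromer subunit Vps26a (0.39, SE 0.13, adjusted p = 0.259). Pacsin1, a syndapin that binds EHD proteins, was the 1 of 28 that passed between populations, higher in Ly-6D+ CLPs. Of all genes 2.14% passed between populations after CpG and 1.98% after PBS. Pacsin1 averaged 6.93 ± 0.14 in Ly-6D+ and 5.65 ± 0.27 in Ly-6D- CLPs after CpG (SD, n = 3 each, log2 change 1.28, limma adjusted p = 0.00136). After PBS it averaged 6.67 ± 0.10 (SD, n = 2) and 5.32 ± 0.21 (SD, n = 3), with a log2 change of 1.36 (adjusted p = 0.00227).

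Of 24 clathrin-pathway and other EH-domain genes 23 were measured, and limma passed 0 for CpG in either population (medians 0.03 in Ly-6D+ and 0.01 in Ly-6D- CLPs, with 2 genes at an unadjusted p under 0.05 in each). Itsn1, the EH-domain scaffold intersectin, had the smallest p in both, with log2 changes of -0.61 (SE 0.15, limma adjusted p = 0.343) and -0.49 (SE 0.13, adjusted p = 0.149). It was also the 1 of 23 that passed between populations, higher in Ly-6D+ CLPs by 0.68 after CpG (adjusted p = 0.0258) and by 0.79 after PBS (adjusted p = 0.0223). Over all genes 2.14% and 1.98% passed in those comparisons, and 0.0271% and 0.546% for CpG in Ly-6D+ and Ly-6D- CLPs. An unadjusted p under 0.05 for CpG was found for 6.51% and 12.0% of all genes. The caveola coat genes, the setting of EHD2, were all 7 measured. Group means of Cavin2 were 2.92 to 3.34, below the array medians of 3.85 to 3.96. Those of Cav2 in Ly-6D+ CLPs, 4.24 after CpG and 4.65 after PBS, were above them. Detection calls were not used, so none of the 7 was shown to be above background. Limma passed 0 of the 7 in any of these comparisons, with medians of -0.25 for CpG in Ly-6D+ (6 lower) and -0.06 in Ly-6D- CLPs (5 lower). At an unadjusted p under 0.05 there were 2 after CpG between populations, where 12.7% of all genes had one, and 0 in the other 3.

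Of 17 other mucins and sialomucins 16 were measured, with medians of 0.00 for CpG in Ly-6D+ and -0.01 in Ly-6D- CLPs. Limma passed 0 of them for CpG, with 3 of 16 at an unadjusted p under 0.05 in each population, against 6.51% of all genes in Ly-6D+ and 12.0% in Ly-6D- CLPs. Emcn, the endothelial and stem-cell sialomucin endomucin, had a log2 change of -1.15 in Ly-6D- CLPs (SE 0.25, limma adjusted p = 0.0792). Between populations, Emcn and Cd34, a sialomucin of progenitors, were the 2 of 16 that passed, both lower in Ly-6D+ CLPs, where 2.14% of all genes passed after CpG and 1.98% after PBS. Emcn had log2 changes of -1.98 after CpG and -2.46 after PBS (limma adjusted p = 0.00192 and 0.00129). Cd34 had log2 changes of -0.86 and -1.50 (adjusted p = 6.14e-04 and 2.92e-05).

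Markers of other cell types also differed in these comparisons, and list means are averages of log2 values per array. In Ly-6D- CLPs, where Muc13 rose after CpG, 2 of 10 monocyte and granulocyte markers passed as higher (Ccr2 and F13a1). The list means were 9.09 to 9.54 after CpG, against 8.76 to 8.98 after PBS. Passing or not, 7 of these 10 markers were higher and 3 lower, with a median log2 change of 0.19. An unadjusted p under 0.05 was found for 3 of the 10. Of 6 plasmacytoid dendritic markers Cd300c passed as higher (log2 change 1.21, limma adjusted p = 0.0416). All 6 had an unadjusted p under 0.05, but 3 were higher and 3 lower, with a median log2 change of 0.03. Their list means overlapped (8.64 to 8.75 after CpG, against 8.41 to 8.67 after PBS). Of 7 lymphoid progenitor markers 2 fell: Il7r, the interleukin-7 receptor chain (log2 change -0.81, limma adjusted p = 0.0300), and Rag2, of the recombinase that assembles antigen receptor genes (-0.75, adjusted p = 0.0221). The progenitor means were 9.36 to 9.58 after CpG, against 9.80 to 9.88 after PBS. Passing or not, 6 of these 7 markers were lower, with a median log2 change of -0.35. An unadjusted p under 0.05 was found for 6 of the 7 and for 12.0% of all genes. Limma passed 0 of the members of every other marker list there, where 0.546% of all genes passed. Of those lists, B lineage means were lower (5.01 to 5.09 after CpG, against 5.39 to 5.46 after PBS, 2 of 6 at an unadjusted p under 0.05), as were stem and multipotent means (5.34 to 5.64, against 5.77 to 5.85, 3 of 5) and endothelial means (4.42 to 4.72, against 4.73 to 5.01, 1 of 5). Conventional dendritic means were higher (4.95 to 5.23 after CpG, against 4.76 to 4.77 after PBS, 2 of 5), as were mature B means (3.52 to 3.86, against 3.31 to 3.44, 1 of 4).

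In Ly-6D+ CLPs, where Ehd3 was high after CpG, limma passed 0 of the members of every marker list, where 0.0271% of all genes passed and 6.51% had an unadjusted p under 0.05. B lineage means were lower without overlap, at 7.77 to 8.18 after CpG, against 8.42 to 8.44 after PBS, with a median log2 change of -0.45 and 3 of 6 markers at an unadjusted p under 0.05. Means were higher without overlap for the conventional dendritic list (5.00 to 5.06 after CpG, against 4.81 to 4.98 after PBS, 1 of 5 at that level), the T and NK list (4.61 to 4.78, against 4.35 to 4.53, 2 of 7) and the mast and basophil list (4.09 to 4.42, against 3.90 to 4.07, 1 of 4). Their members were split in direction. In that order 3 of 5, 5 of 7 and 2 of 4 were higher, with median log2 changes of 0.01, 0.32 and 0.14. Of all genes taken singly, 10.7% were higher and 9.76% lower without overlap in this comparison. The monocyte and granulocyte means overlapped, at 8.29 to 8.55 after CpG, against 8.05 to 8.47 after PBS, with 4 of 10 markers at that level.

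Between populations after CpG, where Ehd4 was lower in Ly-6D+ CLPs and 2.14% of all genes passed, several marker lists differed. Of 6 B lineage markers 4 were higher in Ly-6D+ CLPs (list means 7.77 to 8.18, against 5.01 to 5.09 in Ly-6D- CLPs), as were 4 of 6 plasmacytoid dendritic markers (9.74 to 9.89, against 8.64 to 8.75). Of 10 monocyte and granulocyte markers 4 were lower in Ly-6D+ CLPs (8.29 to 8.55, against 9.09 to 9.54), as were 2 of 4 mast and basophil markers (4.09 to 4.42, against 4.91 to 5.02) and 2 of 5 stem and multipotent markers (4.65 to 4.97, against 5.34 to 5.64). T and NK means were higher in Ly-6D+ CLPs (4.61 to 4.78, against 4.48 to 4.54), with 0 of 7 markers past the limma test and 2 at an unadjusted p under 0.05. These 7 were split, 4 higher and 3 lower, with a median log2 change of 0.03. Means of the other lists overlapped; in these, Il7r, Rag2, Itgax, Tfrc and Cdh5 passed as higher and Kit, Lmo2, Batf3 and Emcn as lower. The part of these cell types in the Ehd3, Ehd4 and Muc13 differences was not tested.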

How the data were processed

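The values are on the log2 scale, as the authors deposited them, and per the submitters' processing notes they came from Partek and RMA, a method that adjusts background, equalises array distributions and combines probes. Versions and settings were not stated. Per the labels' protocols, 5 ng of RNA was amplified. Of 41345 probe sets, 23521 carried exactly 1 symbol, and the brightest of each symbol stood for its gene, giving 22180 genes. A model with 4 group means was fitted to all 11 arrays (limma 3.58.1, lmFit and eBayes, R 4.3.3, with 7 residual and 3.48 prior degrees of freedom). The threshold was an adjusted p (Benjamini-Hochberg, all genes) under 0.05. The number of arrays limits the precision. The genes, lists and tests were chosen with earlier results of these data known. Ehd3 and Muc13 were left untested in every comparison that holds a Ly-6D+ group, although a test had been planned for the population comparisons. Their tests in Ly-6D- CLPs are not free of the choice, because the spread was estimated from all 11 arrays, the Ly-6D+ arrays included. Named genes were the 5 genes, Ly6d, list members that passed or had the 3 smallest p, and the 5 nearest genes, with some names left out for length. The model was tested on simulated data. Alternatives were other probe set summaries, a filter on dim genes, other spread estimates, array weights, scalings, a block and a threshold, and leaving out each array.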

Additional observations from a re-analysis of the deposited data

Results flagged for a closer look

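Ehd4 was singled out because its CpG effect had opposite signs in the 2 populations. Every CpG array was below the PBS arrays in Ly-6D+ CLPs, by only 0.01 at the nearest, and above them in Ly-6D- CLPs, by 0.17. Of all genes, 0.478% had that opposed pattern. The difference between the 2 effects was -0.50 on the log2 scale (SE 0.14) and did not pass over all genes (limma adjusted p = 0.622, 0.484 to 0.859 over its alternatives). With 2 or 3 arrays in a group, no single array was tested as standing apart.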

How the results depend on the processing

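The number of the 5 genes that passed for CpG in Ly-6D- CLPs, 1 as reported, was 0 after a further quantile normalization, with arrays centred on their medians and with only the groups compared, and ran from 0 to 1 when each array was left out. Muc13 was the gene lost (log2 change 0.59, 0.67 and 0.64, limma adjusted p = 0.0560, 0.0506 and 0.176), and it passed in 6 of 19 alternatives. Without Ly-6D+ CpG replicate 3 the count stayed at 1, but with Ehd3 (adjusted p = 0.0469) in place of Muc13 (0.0639). The number after CpG between populations, 1 as reported, was 0 with only the groups compared and ran from 0 to 1 when each array was left out; Ehd4 passed in 15 of 19 alternatives, with log2 changes of -0.59 to -0.50. Directions turned only among log2 changes that did not pass. The mean of the probe sets of Ehd1 gave -0.18 for CpG in Ly-6D- CLPs, 0.04 between populations after CpG and 0.11 for the difference of CpG effects, and its other probe set, an alternative chosen after seeing the data, gave -0.45, 0.35 and 0.38. Centring gave 0.00 for Ehd4 between populations after PBS. Leaving out each array moved Ehd1 from -0.20 to 0.08 for CpG in Ly-6D+ CLPs, from -0.06 to 0.21 in Ly-6D- CLPs, from -0.24 to 0.03 between populations after PBS and from -0.30 to 0.01 for the difference. It moved Ehd2 from -0.43 to 0.02 for CpG in Ly-6D+ CLPs, from -0.26 to 0.19 after PBS and from -0.29 to 0.16 for the difference, and Ehd4 from -0.11 to 0.04 after PBS. A lone Ly-6D+ PBS array was assumed to vary like the other groups. With the replicate number as a block, no call changed (Muc13 in Ly-6D- CLPs 0.64, adjusted p = 0.0491; Ehd4 after CpG -0.54, adjusted p = 0.0371), and Ehd2 after PBS turned to 0.02. Whether the replicate numbers pair the arrays was not settled. Same-number deviations correlated at -0.034 to 0.176 over 15 pairs, and different-number ones at -0.127 to 0.091 over 30 pairs. The 2 above 0.1 both joined Ly-6D+ CpG replicate 3 to replicate 3 of another group: Ly-6D- CpG (0.176) and Ly-6D- PBS (0.13). Of 11 arrays 8 were closest to an array of their own number. The causes were not tested.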
